A study of Mus musculus with 6 samples.

Results

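The genes that build, cap, regulate and assemble the proteasome were followed through 6 mouse osteosarcomas, 3 from the double knockout (DKO) Osx1-Cre;Rb1lox/lox;p53lox/lox and 3 from the triple knockout (TKO), which adds SKP2-/- to the same alleles. They were taken by symbol, Psma, Psmb, Psmc, Psmd, Psme, Psmf or Psmg followed by a number, which gave 48 of the 56196 genes in the count table. Both groups thus carry loxP-flanked Rb1 and p53 and a Cre recombinase driven by Osx1 (Sp7), which is active in osteoblast precursors, so that Rb1 and p53 are removed in bone-forming cells, while the SKP2 alleles are null in TKO only. SKP2 is the subunit of an SCF ubiquitin ligase that picks the proteins to be marked with ubiquitin. Replicate 1 was a male tumour and replicates 2 and 3 were female tumours in both groups. The labels give neither age nor batch and do not say whether every tumour is from its own mouse; p-values then measure only the spread between these samples, which may be technical.

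The proteasome is the protease that takes apart proteins marked with ubiquitin. Its 20S core is a barrel of stacked rings of alpha and beta subunits; the alpha rings guard the entrance and the subunits beta1 (Psmb6), beta2 (Psmb7) and beta5 (Psmb5) cut the chain. The 19S cap binds, unfolds and threads the substrate. Interferon gamma, and a blood-cell origin, bring in the immunoproteasome subunits beta1i (Psmb9), beta2i (Psmb10) and beta5i (Psmb8), which take the place of the standard catalytic subunits and favour peptides that fit MHC class I molecules. The activator PA28 alpha and beta (Psme1 and Psme2) is induced by the same cytokine. When proteasome activity falls short, the transcription factor NRF1 (Nfe2l1) raises the genes of the standard subunits together.

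The libraries held 17063231 to 22488819 gene counts. Skp2 had 20, 64 and 46 counts in the DKO libraries and 0 in every TKO library, as the labels give it. TKO1 was the library least like its group. Across the genes tested, r between log2 values (prior count 2) was 0.830 with TKO2 and 0.805 with TKO3. It was 0.915 between TKO2 and TKO3 and 0.933 to 0.954 between DKO tumours. Of the markers of the labelled bone tumour, Runx2 was present in all 6 libraries, at 58.2 to 241 CPM (counts-per-million of the library size after scaling). Sp7 was at 0 in TKO1 and DKO2. Bglap, the gene of osteocalcin, lay at 0.374 CPM or less in TKO1 and the 3 DKO tumours against 240 and 153 CPM in TKO2 and TKO3. Col1a1 had 9912 to 11715 CPM and Sparc 2435 to 5159 CPM in DKO, against 208 and 425 CPM in TKO1. Spp1 had 250 to 1607 CPM in DKO and 1196 to 4831 CPM in TKO. Of the 10 markers listed 9 were tested and 0 were called, where 7.36% of all genes tested were. Bglap did not pass the filter on counts and was not tested.

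Promoter sequences are shown for catalytic genes, of which the immune ones are known interferon targets and the standard ones NRF1 targets. Sequences are also shown for the genes that held the interferon-stimulated response core defined below. The RefSeq promoter table (GRCm38.p6, 250 bases before to 50 bases after the start of transcription) held windows for 40 of the 48 genes; Psma8, Psmb1, Psmb2, Psmb7, Psmc3, Psmd3, Psmd7 and Psmg2 were not searched. The 3 motifs searched, each on both strands, were the interferon-stimulated response core (GAAA, any 2 bases, GAAA), the STAT dimer TTCNNNGAA, which is its own reverse complement, and the antioxidant response core TGACNNNGC read by NRF factors, whose TGAC also begins AP-1 and CREB sites. The catalytic genes Psmb10, Psmb6 and Psmb5 are shown for the bases before the start that lie outside every exon of GENCODE M21, with motif matches in capitals.
Psmb10, chr8:105938445-105938642, minus strand: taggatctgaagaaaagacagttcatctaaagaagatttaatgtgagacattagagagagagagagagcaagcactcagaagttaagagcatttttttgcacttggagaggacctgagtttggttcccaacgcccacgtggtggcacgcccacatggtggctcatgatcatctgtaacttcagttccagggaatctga
Psmb6, chr11:70525107-70525356, plus strand: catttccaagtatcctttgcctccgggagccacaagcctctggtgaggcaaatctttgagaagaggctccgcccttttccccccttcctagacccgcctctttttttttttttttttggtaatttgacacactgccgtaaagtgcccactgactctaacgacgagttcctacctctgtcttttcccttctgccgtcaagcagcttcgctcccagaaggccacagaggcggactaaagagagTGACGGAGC
Psmb5, chr14:54618023-54618245, minus strand: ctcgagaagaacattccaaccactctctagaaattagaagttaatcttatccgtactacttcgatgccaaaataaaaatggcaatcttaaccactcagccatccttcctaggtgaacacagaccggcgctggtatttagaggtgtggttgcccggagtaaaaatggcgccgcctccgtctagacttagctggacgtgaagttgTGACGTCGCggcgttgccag
The stretch of Psmb10 held none of the 3 motifs. Psmb6 and Psmb5 each held 1 antioxidant response core, whose first base lay 9 and 47 bases before the start. Of the other immunoproteasome genes, Psmb9 held no match and Psmb8 held 1 STAT match, 97 bases before the start. The bases before both RefSeq starts lie within exons of longer transcripts, so only the match in Psmb8 is shown, with the bases beside it:
Psmb8, chr17:34198088-34198116, plus strand: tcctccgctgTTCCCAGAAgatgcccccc

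Matches to the interferon-stimulated core were found in Psmb3, Psmd4, Psmd9, Psme1 and Psmg4, which is 5 of 40 genes (12.5%) against 3.44% of all 32851 windows. Here and below, a proteasome gene counted if any window of it matched, while the share of all windows counts single windows, so they differ in unit. The matches are shown in capitals with the bases beside them; TTTC, any 2 bases and TTTC is the same core on the other strand.
Psmb3, chr11:97703261-97703290, plus strand: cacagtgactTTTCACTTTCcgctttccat
Psmd4, chr3:95042675-95042704, minus strand: ataaccaaccTTTCCATTTCtgtggcgcct
Psmd9, chr5:123228021-123228050, plus strand: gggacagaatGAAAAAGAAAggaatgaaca
Psme1, chr14:55578493-55578522, plus strand: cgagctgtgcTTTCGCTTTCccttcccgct
Psmg4, chr13:34162969-34162998, plus strand: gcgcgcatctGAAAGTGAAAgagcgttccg
The STAT motif was in 3 of the 40 genes (7.5%, against 8.3% of all windows), namely Psmb8, Psmd2 and Psmg1. The antioxidant core was in 6 (15%, against 12.4%), namely Psmb5, Psmb6, Psmc6, Psmd12, Psmd9 and Psme4. Psmd9 alone held matches to more than 1 motif, 159 and 31 bases before its start. A match is a run of letters and not a measured binding site.

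The comparison of TKO with DKO asks whether the proteasome genes differ between SKP2-null and SKP2-intact tumours. Of the 48 genes 45 had enough counts to be tested, and 0 of the 45 passed the threshold of 0.05 on the adjusted p in edgeR's quasi-likelihood test, where 7.36% of all 15361 genes tested passed (4.89% higher and 2.47% lower in TKO). At an unadjusted p under 0.05 there were 6 genes, all higher in TKO (Psma2, Psma5, Psma6, Psmb3, Psmb7 and Psmc1), against 25% of all genes in either direction and 14.4% in that direction. DESeq2, another count test, called 2 of the 45 higher in TKO, Psmb3 (adjusted p = 0.00534) and Psmc1 (adjusted p = 0.0411), where it called 18.8% of all genes (11.6% higher and 7.22% lower). Limma-voom called 0, where it called 7.23% of all genes (4.28% higher and 2.95% lower).

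The differences were small for most proteasome genes. Of the 45 tested, 43 (95.6%) had a log2 fold change (TKO minus DKO) between -1 and 1, against 66.3% of all genes. The exceptions were Psma2 and Psmb10. The median was 0.36, against 0.09 over all genes, and 34 of 45 (75.6%) lay above 0, against 54.2%. Without TKO1 the median was 0.19. In 11 genes the 3 TKO values all lay above the 3 DKO values (17.3% of all genes did so) and in 0 they all lay below (15.6% of all genes). Of those 11, the standard 20S core held 7 (Psma2, Psma5, Psma6, Psmb3, Psmb4, Psmb5 and Psmb7), the 19S cap 2 (Psmc1 and Psmd6) and the assembly chaperones 2 (Psmd9 and Psmg3).

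The class medians ran from 0.62 for the 14 standard 20S subunits, of which 13 were above 0, through 0.25 for the 17 subunits of the 19S cap to 0.11 for the 6 assembly chaperones tested and -0.33 for the 3 immunoproteasome subunits. The 19S median was 0.47 without DKO1, the chaperone median was -0.38 without TKO1 and the immunoproteasome median was 0.11 without TKO1. The medians describe these libraries and the differences between classes were not tested.

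**Figure D1:**
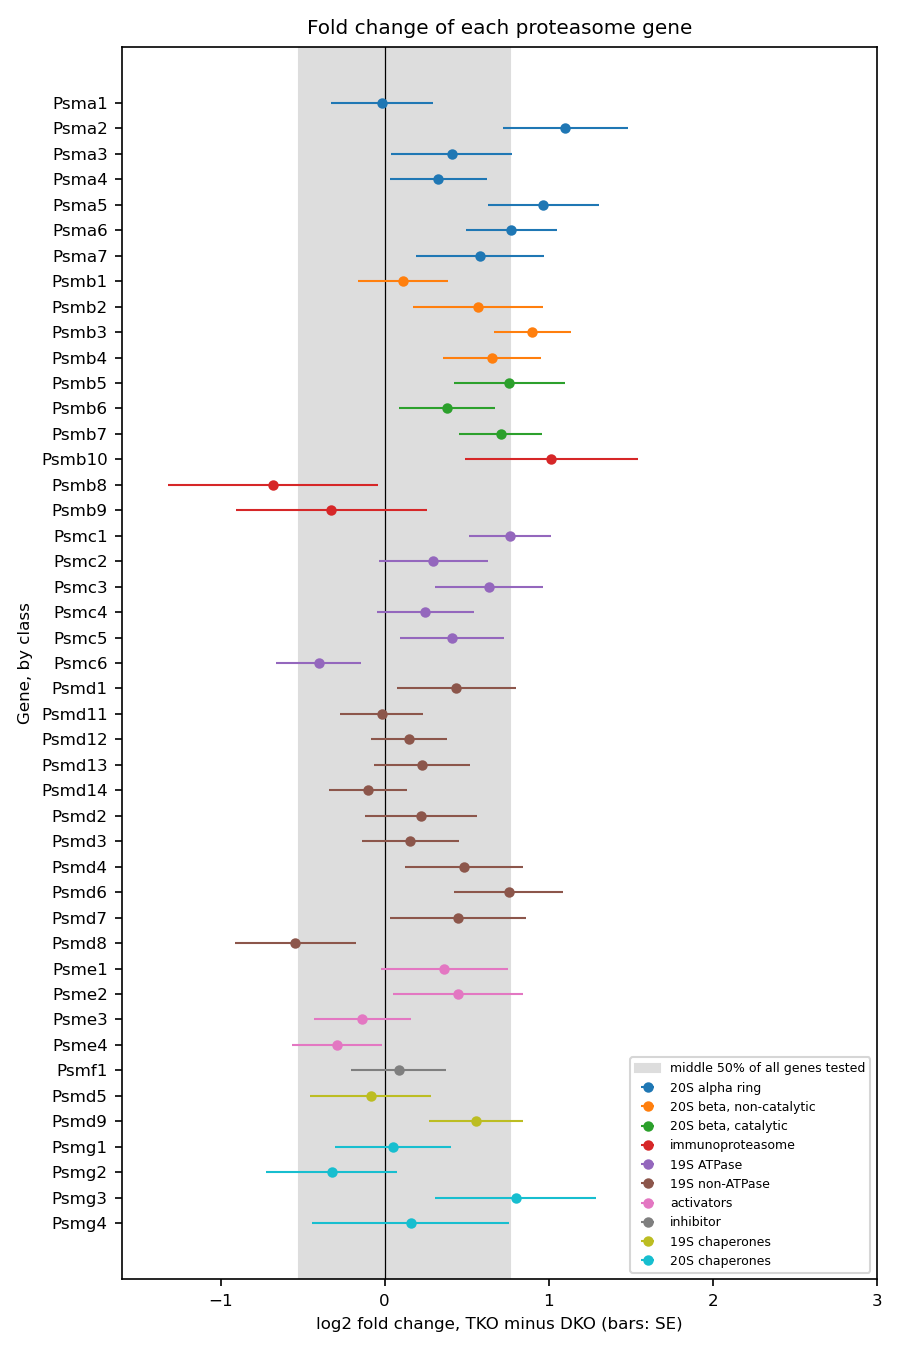
Log2 fold change of each of the 45 proteasome genes tested, TKO minus DKO, with bars of 1 SE and colours for the class; the shaded band holds the middle 50% of all genes tested. Most genes of the 20S core lie to the right of 0, Psmb8, Psmd8, Psmc6 and Psmb9 lie farthest to the left, and no gene passed the threshold on the adjusted p.

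The tumours differed among themselves. Over the 45 genes, the median log2 ratio to the DKO mean (with 0.5 CPM added to each value) was 0.45 in TKO1, 0.41 in TKO2 and 0.18 in TKO3, and between -0.13 and 0.13 in the DKO tumours. TKO1 exceeded all 3 DKO tumours in 30 of the 45 genes (37.9% of all genes tested did so). It was the highest TKO tumour in 24 (37.3% of all genes), and TKO3 was the lowest in 24 (30.9% of all genes). Among genes with a mean of at least 10 CPM, the coefficient of variation within DKO had a median of 15.7% over 44 proteasome genes and 21.5% over 10063 genes in all. Within TKO it was 27.1% and 35.1%.

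**Figure D2:**
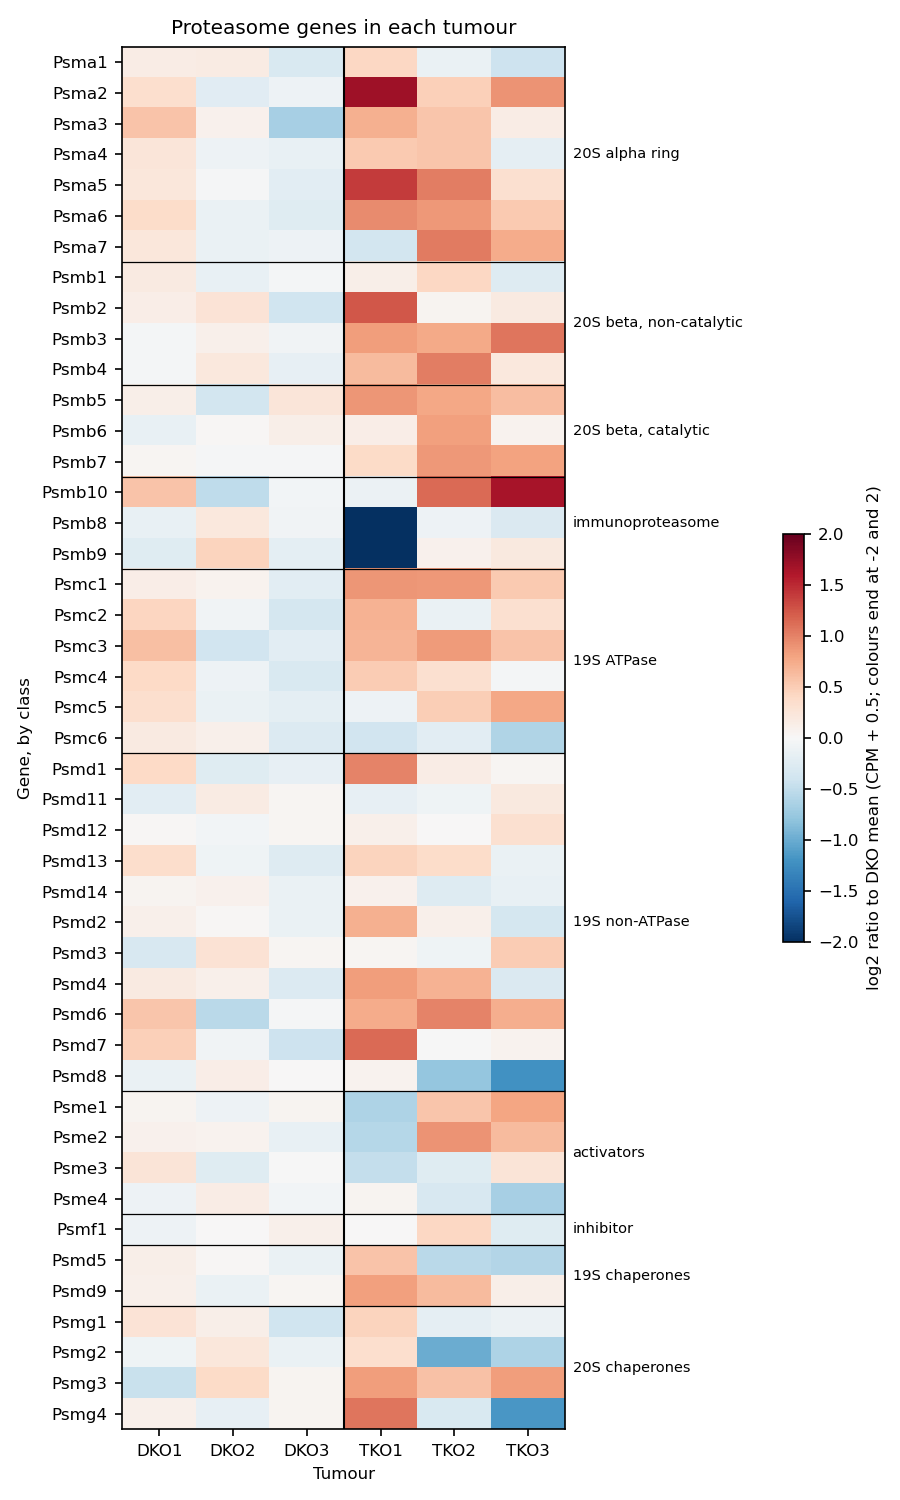
Log2 ratio of each tested proteasome gene (rows, by class) to its DKO mean in each tumour (columns), with 0.5 CPM added and colours ending at -2 and 2. TKO1 is above the DKO mean through most of the 20S and 19S genes and below it in Psmb8 and Psmb9.

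In the standard 20S core, the summed level of the 14 genes was 1341, 1201 and 1048 CPM across the DKO tumours (in the order of replicates 1 to 3, as throughout) and 1986, 1856 and 1484 CPM across the TKO tumours. The lowest TKO sum lay above the highest DKO sum, although 0 of the 14 genes passed the threshold. Of the 7 alpha subunits, which form the outer rings and the gate, 6 had a positive fold change. Psma2 (alpha2, ENSMUSG00000015671.11; chr13:14613240-14674236, GRCm38) had 115, 77.8 and 85.1 CPM in the DKO tumours and 298, 127 and 171 CPM in the TKO tumours. Its groups did not overlap, TKO1 was far above the rest, and its log2 fold change was the largest of all 45 genes (1.10, SE 0.38, adjusted p = 0.132). Without TKO1 it was 0.68 and no longer the largest. Of the 45 genes, Psmb10, Psmb3, Psma7, Psmb7, Psmd6, Psme2, Psmg3, Psmc1, Psma5 and Psmb5 then lay above it, and Psma6 was also at 0.68.

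Psma5 (alpha5; chr3:108256926-108279974) had 82.1, 68.8 and 59.9 CPM in DKO and 184, 142 and 87.0 CPM in TKO (log2 fold change 0.97, SE 0.34, adjusted p = 0.134). TKO3 lay just above DKO1 and the groups did not overlap. Of its principal transcript 76.5% is repeated at 98% identity or more in the gene model Gm8394, which had 2 to 7 counts per library, and reads that map to more than 1 place were not counted. Psma6 (alpha1) had 61.8 ± 14.3 CPM in DKO and 105 ± 15.4 CPM in TKO (SD, n = 3; adjusted p = 0.144). For Psma1, Psma3, Psma4 and Psma7 the groups overlapped, with log2 fold changes of -0.02 to 0.58 and adjusted p of 0.402 to 0.979; the sign of Psma1 turned under other scalings.

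The beta subunits without an active site of their own had log2 fold changes of 0.11 (Psmb1), 0.57 (Psmb2), 0.90 (Psmb3) and 0.65 (Psmb4); without TKO1 that of Psmb2 was 0.087. Psmb3 (beta3, ENSMUSG00000069744.7; chr11:97703399-97713500) came nearest to the threshold of all 45 genes. It had 75, 82.7 and 73.3 CPM in DKO and 138, 131 and 163 CPM in TKO. The DKO values lay within 10 CPM of each other and every TKO value was well above them (SE 0.24, adjusted p = 0.0672). Without TKO1 it passed (log2 fold change 0.92, adjusted p = 0.0426), in a fit that called 14.6% of all genes (9.61% higher and 4.94% lower).

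The 20S subunits occur in equal numbers in the assembled core, but their transcripts did not. Per kilobase of principal transcript, the scale on which genes can be compared, the DKO means ran from 12.5 ± 2.74 CPM per kb for Psmb5 (SD, n = 3) and 31.8 ± 6.77 for Psma2 to 116 ± 26.5 for Psmb2 and 116 ± 15.3 for Psmb4. In TKO they ran from 21.2 ± 1.94 CPM per kb for Psmb5 to 188 ± 22.2 for Psmb3. Psmb5 was the lowest of the 14 in each group. Its principal transcript is repeated over 88.4% of its length, mostly in Gm3375, which had 0 or 1 counts per library; the part of uncounted reads in its low level was not tested.

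The standard catalytic subunits were all above their DKO mean in TKO. Psmb6 (beta1, ENSMUSG00000018286.6; chr11:70525367-70527858), the caspase-like subunit, had 73.6, 82.9 and 88.7 CPM in DKO and 89.7, 144 and 85.7 CPM in TKO (log2 fold change 0.38, SE 0.29, adjusted p = 0.46). TKO2 stood well above the DKO range, TKO1 just above it and TKO3 within it. Psmb7 (beta2, ENSMUSG00000026750.6; chr2:38588036-38644087), the trypsin-like subunit, had 44.1, 42.3 and 42.2 CPM in DKO and 55.9, 79.0 and 74.9 CPM in TKO (0.71, SE 0.25, adjusted p = 0.14). The DKO tumours were almost equal and all TKO tumours lay above them. Psmb7 overlaps an exon of Nek6 on the other strand, over 35.1% of its transcript, and the counts used here do not use strand.

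Psmb5 (beta5, ENSMUSG00000022193.7; chr14:54614119-54618022), the chymotrypsin-like subunit and the main target of proteasome inhibitors, had 12, 8.50 and 13.3 CPM in DKO and 20.8, 19.2 and 17.3 CPM in TKO (log2 fold change 0.76, SE 0.34, adjusted p = 0.22). The groups did not overlap. TKO1 was the highest for Psmb5 and the lowest of the TKO tumours for Psmb7.

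The immunoproteasome subunits had no common direction. Psmb8 (beta5i, ENSMUSG00000024338.15; chr17:34197721-34201454) had 26.7, 34.3 and 28.3 CPM in DKO and 4.19, 27.5 and 24.0 CPM in TKO, with 101 counts in TKO1. TKO1 was far below every other tumour, TKO3 lay just below the DKO range and TKO2 within it. The log2 fold change of -0.68 was the lowest of the 45 genes and had an interval as wide as -2.20 to 0.84 (95%; SE 0.64, adjusted p = 0.548). Without TKO1 it was -0.21. Lower values were then those of Psmd8 (-0.99), Psmg2 (-0.82), Psmg4 (-0.72), Psmd5 (-0.57), Psme4 (-0.50), Psmc6 (-0.41) and Psma1 (-0.29).

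Psmb9 (beta1i, ENSMUSG00000096727.3; chr17:34181987-34187764, head to head with the peptide transporter gene Tap1) had 26.3, 42.7 and 27.3 CPM in DKO and 7.52, 33.2 and 36.1 CPM in TKO. Again TKO1 was the lowest tumour and the other TKO tumours lay within the DKO range (-0.33, SE 0.58, adjusted p = 0.77). Without TKO1 the value was 0.11. Tap1 itself had 168, 189 and 126 CPM in DKO and 31.7, 109 and 81.0 CPM in TKO, so that its groups did not overlap (-1.12, SE 0.47, adjusted p = 0.194). The 2 genes overlap over 15.7% of the Psmb9 transcript.

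Psmb10 (beta2i, ENSMUSG00000031897.9; chr8:105935735-105938444) had 24.0, 11.1 and 15.5 CPM in DKO and 14.8, 35.9 and 51.7 CPM in TKO. TKO2 and TKO3 were the highest tumours, and TKO1 lay within the DKO range (1.02, SE 0.53, adjusted p = 0.282). Without TKO1 the log2 fold change was 1.37 (adjusted p = 0.0664). For the 3 genes together, the summed level was 77.0, 88.1 and 71.0 CPM in DKO and 26.5, 96.6 and 112 CPM in TKO. The mean was 78.7 ± 8.64 CPM in DKO and 78.3 ± 45.5 CPM in TKO (SD, n = 3), so that the groups had nearly the same mean and TKO had the wider spread.

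**Figure D3:**
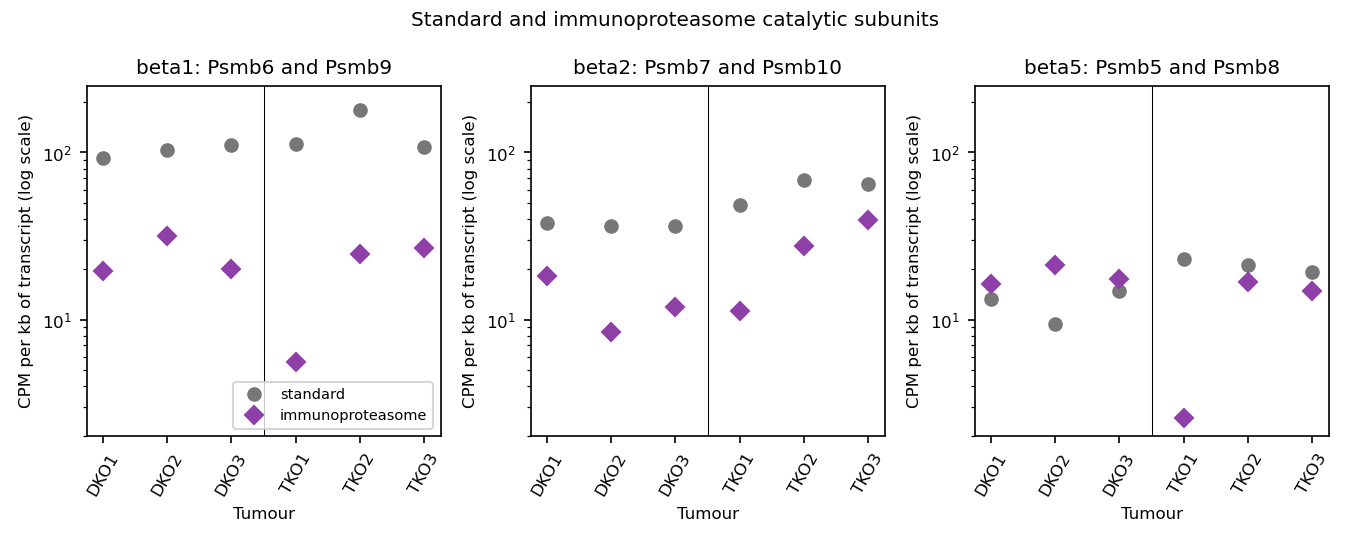
Standard (circles) and immunoproteasome (diamonds) catalytic subunit of each position in each tumour, in CPM per kilobase of principal transcript on a log scale. At beta5 the diamonds lie above the circles in the 3 DKO tumours and below them in the 3 TKO tumours; at beta1 and beta2 they lie below in all 6. With all annotated exons as the length, only DKO2 keeps the diamond above the circle at beta5 (51.8%), and DKO1 (52.2%) and TKO3 (58.04%) have it above at beta2.

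Each immune subunit was then set against the standard subunit it replaces, per kilobase of transcript, which gives the immune share of the transcripts at each position and not of the protein. At beta5 Psmb8 made up 55.1, 69.0 and 54.1% of the pair in DKO and 10.04, 44.2 and 43.4% in TKO. All TKO shares lay below all DKO shares, and this also held when all annotated exons gave the length (36.2 to 51.8% in DKO, 5.1 to 27.6% in TKO). At beta1 the share of Psmb9 was 17.4, 23.3 and 15.4% in DKO and 4.71, 12 and 19.9% in TKO, with overlap.

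At beta2 the share of Psmb10 was 32.5, 18.9 and 24.5% in DKO and 19, 28.7 and 37.9% in TKO, again with overlap. With all annotated exons as the length these beta2 shares were 52.2, 34.5 and 42.4% in DKO and 34.7, 47.7 and 58.04% in TKO. Over the 3 positions the immune share was 26.6 ± 2.91% in DKO and 19.9 ± 10.1% in TKO (SD, n = 3), with 9.56, 20.4 and 29.7% in the TKO tumours. TKO1 had the lowest share at beta1 and beta5 but not at beta2. The shares were not tested: 3 against 3 tumours allow only 20 assignments, too few for an exact permutation test to pass 0.05, and the low counts of Psmb5 enter the beta5 share.

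The immunoproteasome is made by blood cells without interferon, and the TKO libraries held more RNA of such cells. Against 4.89% of all genes tested, 15 of 16 leukocyte and macrophage markers were called higher in TKO. Most of these markers were at or near 0 in DKO and entered the fit only through their TKO counts. No support is therefore drawn from the calls, and the levels are given. The summed level of the 16 markers was 10.02, 126 and 93.5 CPM in DKO and 1143, 3197 and 2884 CPM in TKO. Cd68, the marker that was not called, made up 5.46, 121 and 90.4 CPM of the DKO sums. The 3 C1q genes were at 0 in every DKO library, and Ptprc (CD45) was at 0, 0.153 and 0 CPM in DKO and 20.8, 94.7 and 88.0 CPM in TKO. Lymphocyte markers (4 of 13, with 4 tested) and dendritic cell markers (1 of 8, with 4 tested) were also called higher. So were endothelial (9 of 10), muscle (9 of 10) and red cell (4 of 6, with 4 tested) markers. The same limit holds for most of these calls. Within TKO, the tumour with the least leukocyte RNA, TKO1, also had the lowest levels of Psmb8, Psmb9, Psmb10, Psme1 and Psme2. The part of leukocytes in these levels was not tested, and in bulk tissue fewer cells of a type and less RNA per cell cannot be told apart. In the DKO tumours, where Ptprc was at or near 0, Psmb8 had 26.7 to 34.3 CPM and Psmb9 26.3 to 42.7 CPM. In TKO2 and TKO3 Psmb8 had 27.5 and 24.0 CPM and Psmb9 33.2 and 36.1 CPM. Psmb10, Psme1 and Psme2 were higher in TKO2 and TKO3 than in any DKO tumour.

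**Figure D4:**
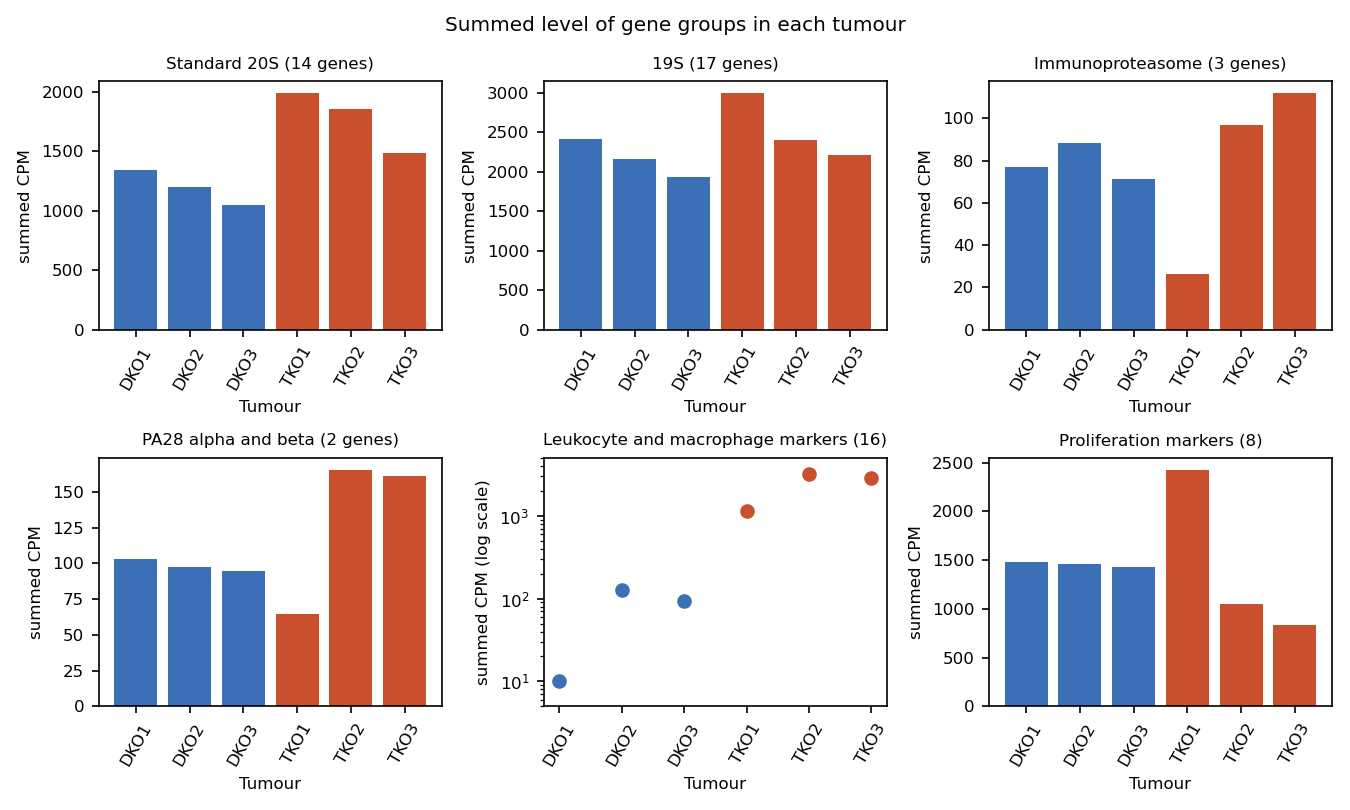
Summed CPM in each tumour of the standard 20S genes, the 19S genes, the immunoproteasome genes, PA28 alpha and beta, 16 leukocyte and macrophage markers (points on a log scale) and 8 proliferation markers. TKO1 has the highest 20S, 19S and proliferation sums and the lowest immunoproteasome and PA28 sums.

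The 19S cap showed smaller differences. Its 17 genes summed to 2423, 2160 and 1939 CPM in DKO and 2996, 2401 and 2219 CPM in TKO; only TKO1 exceeded all DKO tumours. Of the 6 ATPases, which form the ring that unfolds the substrate, 5 had a positive fold change. Psmc1 had 87.5, 83.7 and 68.6 CPM in DKO and 147, 146 and 115 CPM in TKO (log2 fold change 0.77, SE 0.25, adjusted p = 0.117), with groups that did not overlap. Psmc6 (chr14:45329788-45349705) had 182, 172 and 133 CPM in DKO and 124, 139 and 106 CPM in TKO. It was the only ATPase with a negative value (-0.40, SE 0.26, adjusted p = 0.381), and TKO2 lay within the DKO range. Psmc2, Psmc3, Psmc4 and Psmc5 had values of 0.25 to 0.64 and overlapping groups.

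Of the 11 other cap subunits 8 had positive values. Psmd6, a lid subunit, had 79.8, 36.9 and 53.3 CPM in DKO and 90.2, 107 and 89.4 CPM in TKO (0.76, SE 0.33, adjusted p = 0.216). Psmd8 (chr7:29174188-29180701), also of the lid, had 180, 217 and 198 CPM in DKO and 207, 115 and 85.4 CPM in TKO (-0.55, SE 0.37, adjusted p = 0.405). TKO1 sat with the DKO tumours, and TKO2 and TKO3 lay far below them; without TKO1 the gene passed the threshold as lower in TKO (-0.99, adjusted p = 0.0498). Per kilobase Psmd8 was the most abundant of the 48 genes in DKO, at 129 ± 11.7 CPM per kb (SD, n = 3), within the SD of Psmb2, the next in order.

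The deubiquitinase Psmd14, which strips ubiquitin from the substrate at the lid, had 85.3 ± 6.88 CPM in DKO and 79.5 ± 9.97 CPM in TKO (-0.10, 95% interval -0.66 to 0.46, adjusted p = 0.822). The ubiquitin receptor Psmd4 had 130 ± 21 and 182 ± 67.4 CPM (0.48, adjusted p = 0.442; 0.27 without TKO1). The large scaffold subunits Psmd1 and Psmd2 had 0.44 and 0.22 and were both highest in TKO1, at 292 and 512 CPM; without TKO1 they had 0.064 and -0.11. The remaining lid subunits, Psmd3, Psmd7, Psmd11, Psmd12 and Psmd13, had values of -0.02 to 0.45 with overlapping groups and adjusted p of 0.542 to 0.97; the sign of Psmd11 turned under other scalings.

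Among the activators, PA28 alpha and beta lay below all DKO tumours in TKO1, as did Psmb8 and Psmb9 but not Psmb10. Psme1 had 48.4, 43.5 and 48.7 CPM in DKO and 30.5, 69.1 and 81.2 CPM in TKO (log2 fold change 0.36, SE 0.39, adjusted p = 0.597). Psme2 had 54.4, 53.7 and 46.1 CPM in DKO and 34.3, 96.3 and 79.7 CPM in TKO (0.45, SE 0.40, adjusted p = 0.523). In both genes TKO1 lay below all DKO tumours and the other TKO tumours above them. Without TKO1 the values were 0.68 (adjusted p = 0.0983) and 0.77 (adjusted p = 0.0738). The paralogue Psme2b repeats 82.5% of the Psme2 transcript and had 0 to 5 counts, so the level of Psme2 is uncertain. The nuclear activator PA28 gamma (Psme3) had 123 ± 21.2 CPM in DKO and 112 ± 30.2 CPM in TKO, and PA200 (Psme4) had 134 ± 12.8 and 109 ± 27.4 CPM (SD, n = 3; adjusted p = 0.81 and 0.552). The inhibitor PI31 (Psmf1) had 28.9 ± 1.92 and 30.7 ± 7.19 CPM (adjusted p = 0.882).

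The chaperones that assemble the particle were highest in TKO1. All 6 tested lay above every DKO tumour in TKO1, as 37.9% of all genes did, and their summed level was 198, 195 and 174 CPM in DKO and 288, 158 and 144 CPM in TKO. Psmg4, which acts in building the alpha ring, had 14.7, 12.2 and 14.1 CPM in DKO and 29.1, 10.9 and 5.79 CPM in TKO, the widest relative spread within TKO among them (0.16, SE 0.60, adjusted p = 0.896). Psmd9 had 32.9 ± 2.78 CPM in DKO and 48.4 ± 11.8 CPM in TKO (0.56, adjusted p = 0.28), and Psmg3 had 3.31 ± 1.05 and 5.76 ± 0.581 CPM (0.80, adjusted p = 0.357); both had groups that did not overlap. Psmd5, Psmg1 and Psmg2 had values of -0.32 to 0.05. The 8 proliferation markers, 0 of them called, also had their highest sum in TKO1, at 2427 CPM, with 1054 and 829 CPM in TKO2 and TKO3 and 1426 to 1479 CPM in DKO; the part of proliferation in the proteasome levels was not tested.

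The 3 genes that were not tested had few counts or none. Psma8, the alpha subunit of the testis proteasome, had 0 counts in each DKO library and 4, 53 and 11 counts in TKO1, TKO2 and TKO3. It was called higher in TKO when no filter on low counts was used (adjusted p = 0.0401) and without TKO1 (adjusted p = 0.0449). Those fits called 813 of 31330 genes and 9.61% of all genes higher. With 0 counts in DKO, Psma8 entered them only through its TKO counts, so no support is drawn from these calls. Psmb11, the subunit of the thymus proteasome, had 3 counts in TKO1 and 0 in the others. Psmd10, the gene of the cap chaperone and oncoprotein gankyrin, was listed at 0 counts in all 6 libraries, where a count of 0 allows up to 3; whether its reads were lost in the counting was not tested.

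Other genes of the ubiquitin and proteasome pathway were counted in 5 lists, in which edgeR called 1 gene. Of 10 proteasome subunits and factors whose symbols fall outside the rule, edgeR and limma-voom called 0 (2 at an unadjusted p under 0.05 by edgeR). Sem1 was called higher by DESeq2 (adjusted p = 0.0167) and by edgeR without TKO1 (0.0341). Over all genes those fits called 11.6% and 9.61% higher, and 25% had an unadjusted p under 0.05 by edgeR. The small cap subunit Sem1 had 50.7, 41.5 and 47.4 CPM in DKO and 79.4, 86.9 and 154 CPM in TKO (log2 fold change 1.20, SE 0.33, adjusted p = 0.075). The core maturation factor Pomp had 73.2, 60.02 and 52.5 CPM in DKO and 101, 108 and 91.5 CPM in TKO (0.70, SE 0.25, adjusted p = 0.142). Both had groups that did not overlap, as had the cap's ubiquitin receptor Adrm1 (0.50, adjusted p = 0.309), whereas the groups of Ecpas overlapped (-0.46, adjusted p = 0.444).

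Of 10 genes of the NRF1 and NRF2 system edgeR called 1, where it called 7.36% of all genes. Nfe2l2 (NRF2) was the gene called, as lower in TKO. It had 278, 201 and 207 CPM in DKO and 106, 102 and 68.6 CPM in TKO (-1.31, SE 0.30, adjusted p = 0.0458), lower in 3 of 3 TKO tumours than in any DKO tumour. The call passed in 7 of 15 alternatives. It was lost with library totals (adjusted p = 0.0513), with genes of at least 1 CPM only (0.0825), under the replicate block (0.0938), and whenever TKO2 (0.0972), TKO3 (0.107), DKO2 (0.128), DKO1 (0.133) or DKO3 (0.145) was left out. Nfe2l1 (NRF1), the factor named for the joint control of proteasome genes, had 580, 865 and 792 CPM in DKO and 130, 437 and 311 CPM in TKO. Its groups did not overlap either, but the difference did not pass (-1.35, SE 0.48, adjusted p = 0.141). Mafg, a partner of both, and Bach1, a competitor for their sites, had -0.64 and -0.53 (adjusted p = 0.23 for each).

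Of 11 genes of ubiquitin supply and delivery edgeR called 0 (2 at an unadjusted p under 0.05), DESeq2 called 2 and limma-voom 1. Over all genes DESeq2 called 18.8% and limma-voom 7.23%, and 25% had an unadjusted p under 0.05 by edgeR. Sqstm1 (p62), a carrier of ubiquitinated proteins to autophagy, had 970, 1051 and 1162 CPM in DKO and 319, 535 and 238 CPM in TKO (-1.54, SE 0.39, adjusted p = 0.0603). It was lower past the threshold by DESeq2 (adjusted p = 0.00242) and limma-voom (0.0415), and its groups did not overlap. The polyubiquitin gene Ubb had 0.46 (adjusted p = 0.409) with overlap. The shuttle gene Ubqln4 had 0.65 (adjusted p = 0.266).

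**Figure D5:**
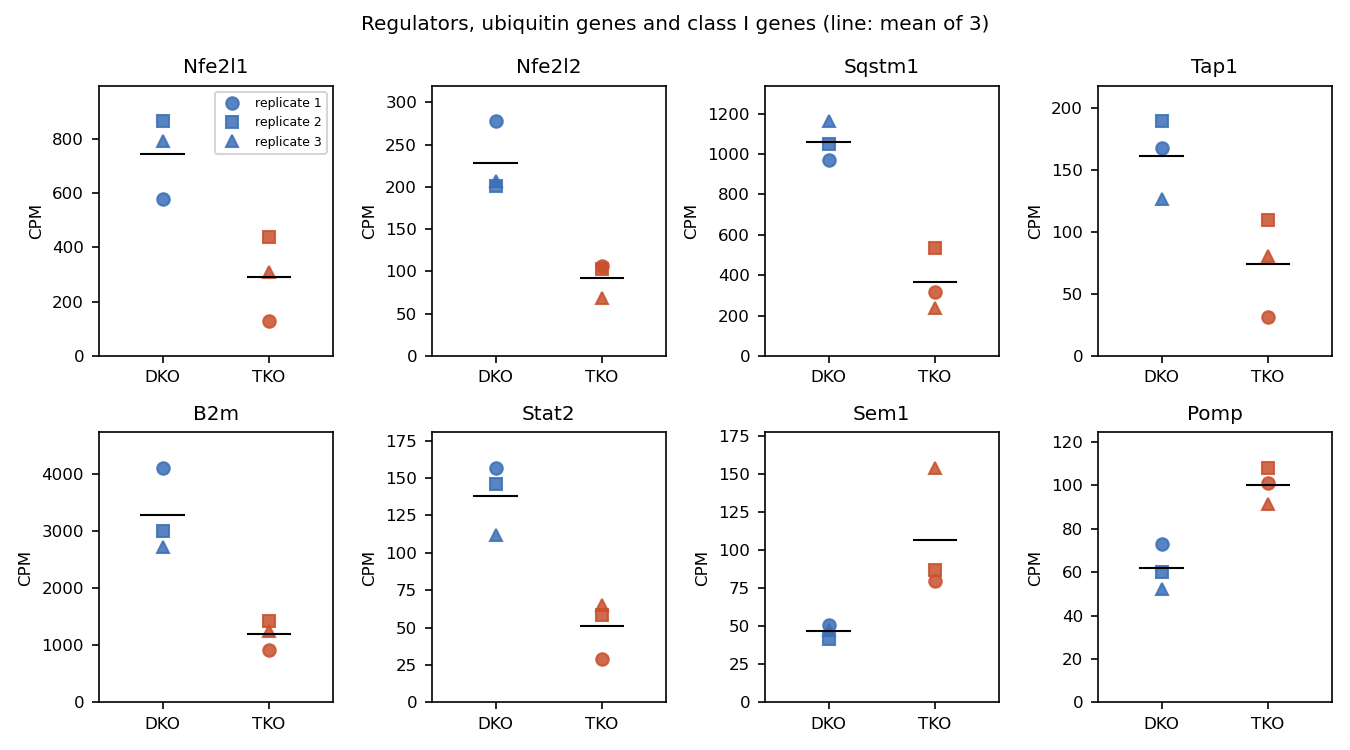
CPM of 8 genes around the proteasome in each tumour, DKO on the left and TKO on the right of each panel, with a symbol for each replicate number and a line at the mean of 3. In Nfe2l1, Nfe2l2, Sqstm1, Tap1, B2m and Stat2 every TKO tumour lies below every DKO tumour and in Sem1 and Pomp above; by edgeR only Nfe2l2 passed the threshold, and DESeq2 also passed Sqstm1, B2m, Stat2 and Sem1.

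Peptides made by the proteasome are loaded on MHC class I. Of 11 genes of that step edgeR called 0 (5 at an unadjusted p under 0.05, all lower). Over all genes 25% had an unadjusted p under 0.05 in either direction. DESeq2 called 2 lower, B2m (adjusted p = 0.00064) and Canx (0.0151), where it called 7.22% of all genes lower. Limma-voom called B2m (0.0405), where it called 2.95% of all genes lower. Of the 11 genes the values of 9 were negative and of 2 positive. In 5 the TKO values lay wholly below the DKO values (15.6% of all genes did so). By edgeR the light chain B2m (-1.45, adjusted p = 0.0681), the chaperone Canx (-1.10, adjusted p = 0.0961) and H2-K1 (-1.30, adjusted p = 0.152) were among those 5. Tap1 is given above.

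Of the 13 genes of interferon gamma signalling and class I control, Ifng had 0 counts in all 6 libraries, and edgeR called 0 of the other 12 (3 at an unadjusted p under 0.05). Over all genes 25% had an unadjusted p under 0.05. DESeq2 called Stat2 lower (adjusted p = 0.00814) and Irf8 higher (4.5e-05), and limma-voom called Irf8 (0.0293). Without TKO1 edgeR called Stat2 (0.0334), Irf8 (0.0387) and Jak1 (0.0437). Over all genes DESeq2 called 18.8%, limma-voom 7.23% and edgeR without TKO1 14.6%. Stat2 had 157, 146 and 112 CPM in DKO and 29.2, 58.4 and 64.8 CPM in TKO (-1.44, SE 0.36, adjusted p = 0.0603). Irf8, a factor of myeloid cells, had 0, 2.04 and 0.355 CPM in DKO and 19.2, 38.1 and 38.8 CPM in TKO (5.31, SE 1.33, adjusted p = 0.0607). Irf8 is expressed in leukocytes, whose summed marker level was higher in TKO. The part of leukocytes in the level of Irf8 was not tested. Jak1 (adjusted p = 0.128) had 381 ± 77.8 CPM in DKO and 190.4 ± 60.4 CPM in TKO. Socs1, an inhibitor of the pathway, had 8.40 ± 2.73 CPM in DKO and 18.5 ± 8.42 CPM in TKO (SD, n = 3; adjusted p = 0.215). Irf1, which drives the immunoproteasome genes, had 38.7 ± 14.7 CPM in DKO and 40.9 ± 11.5 CPM in TKO (0.08, 95% interval -0.86 to 1.02).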

How the data were processed

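Tumour RNA (about 100 mg of fresh tissue) was selected with oligo(dT) and sequenced by Illumina HiSeq, as stated per the labels. The authors deposited whole-number counts of reads per gene with no normalization; STAR 2.6.1 and mm10 are named per the submitters' processing notes, and no annotation release is named. The column of reads on either strand was used, which cannot separate genes that overlap or lie antisense. Reads in no gene (5.33 to 9.3%), in more than 1 gene (5.1 to 6.53%), at several places (3.94 to 4.7%) or unmapped (2.53 to 3.2%) were left out. The series table differed from the library files in 0 genes.

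IDs were matched to GENCODE M21 (GRCm38; 55240 of 56196), which also gave positions and transcript lengths. Genes kept by filterByExpr (minimum count 10) were scaled by TMM and compared with edgeR's quasi-likelihood test (edgeR 4.0.16, R 4.3.3; robust, no covariate; checked on simulated data), with Benjamini-Hochberg adjustment over all genes and a threshold of 0.05. Adjusted p-values come from it unless DESeq2 (1.42.0) or limma-voom (limma 3.58.1) is named. Intervals of 95% use the moderated degrees of freedom. Near copies are matches of at least 100 bases at 98% identity.

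Members, classes, lists and the rule for named genes (all members by class; values in every tumour for the immune and standard catalytic subunits, called genes and the 3 largest and 3 smallest changes; up to 4 pathway genes of smallest p per list) were chosen with earlier results of these data known. Per-tumour values of other genes were added after their values were seen, as was Irf1. Paaf1 had no match. A gene that this rule names is not reported here.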

Additional observations from a re-analysis of the deposited data

How the results depend on the processing

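The finding of 0 called proteasome genes held with RLE size factors, library totals, limma-voom, a minimum of 1 CPM, the second strand column, sex as a covariate and the replicate block, and without each tumour other than TKO1. It became 2 with DESeq2, 1 with no filter on low counts (Psma8) and 3 without TKO1 (Psmb3, Psma8 and Psmd8), so that leaving out 1 replicate gave 0 to 3. Over all genes, 1131 calls became 2893 with DESeq2, 158 with genes of at least 1 CPM in each group and 295 under the replicate block. They were 39, 2 and 0 without DKO1, DKO2 and DKO3 and 2385, 475 and 331 without TKO1, TKO2 and TKO3, a range of 0 to 2385; without DKO3, 3017 genes had an unadjusted p under 0.05. Across all genes tested, same-numbered tumours did not deviate together (correlations of -0.007, 0.0089 and -0.017). Such correlations cannot exclude a pairing by number that touches few genes. Among proteasome and pathway genes the block changed no call other than that of Nfe2l2 (adjusted p = 0.0938). The cause of these changes was not tested.

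When 1 tumour was left out at a time, the median log2 fold change ranged from 0.19 to 0.47 over all genes of the proteasome, 0.11 to 0.47 for the 19S cap and -0.38 to 0.35 for the assembly chaperones, -0.65 to 0.11 for the immunoproteasome and -0.015 to 0.34 for the activators. Without members mostly repeated in another gene, an alternative chosen after seeing the data, the medians of all members and of the standard 20S subunits were 0.31 and 0.58, and that of the activators -0.14. Signs of single genes near 0 turned. Psma1 was 0.0065 with RLE, 0.024 with library totals, 0.0065 with DESeq2 and 0.0086 with genes of at least 1 CPM. Psmd11 was 0.0017, 0.0016 and 0.0078 with RLE, DESeq2 and genes of at least 1 CPM. Psmg4 was -0.10 with limma-voom, -0.12 with sex as a covariate and -0.15 under the replicate block. Over the fits without 1 tumour the ranges of the genes that changed sign were: Psma1 -0.29 to 0.16, Psmb1 -0.056 to 0.27, Psmb9 -0.65 to 0.11, Psmd2 -0.11 to 0.45, Psmd3 -0.036 to 0.29, Psmd5 -0.57 to 0.12, Psmd7 -0.025 to 0.72, Psmd11 -0.13 to 0.049, Psme3 -0.37 to 0.0058, Psmf1 -0.10 to 0.23, Psmg1 -0.19 to 0.19, Psmg4 -0.72 to 0.55. Other scalings moved the median of all genes by 0.021 (RLE) and 0.026 (library totals).

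With 3 tumours a group, the SE of the log2 fold changes of the 45 genes ran from 0.23 to 0.64. Depth limits the precision of the lowest genes, Psmg3, Psma8 and Psmb11; the 3 counts that a count of 0 allows cover counting error only.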
